A study of Mus musculus with 2 samples.

Results

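The granzymes are the serine proteases of cytotoxic granules, and their transcripts were examined here in vesicles released by mouse cytotoxic T lymphocytes (CTL). The family was taken as 9 genes, Gzma, Gzmb, Gzmc, Gzmd, Gzme, Gzmf, Gzmg, Gzmk and Gzmm, and its members were found by the gene symbol given for each array probe. Of 23473 probes, 8 carried one of these symbols, 1 for each gene except Gzmf, for which no probe is named in the annotation used here. RNA was measured in 2 vesicle fractions of CTL culture medium. The cells had been cultured for 7 days, and the medium was concentrated over a membrane with a 750 kDa cutoff and bound to a DEAE column, a positively charged resin that holds negatively charged particles until salt releases them. One fraction was eluted with 0.3 M NaCl and the other with 0.5 M NaCl, and each was hybridised as Cy5-labelled amplified RNA to 1 array. For mouse strain, stimulus and how many preparations were pooled, the labels have no entry. The comparison addresses whether vesicles that leave the resin at different salt hold granzyme messages at different levels. With 1 array per fraction there is no replicate, no test and no p-value, and each difference describes this pair of arrays.

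A CTL stores granzymes with perforin in granules bound to the proteoglycan serglycin. On contact with a target the granule contents are released, perforin opens the target membrane, and granzymes enter and cleave proteins there. Granzyme B cuts after aspartate and activates the caspase pathway of apoptosis, granzyme A and granzyme K cut after basic residues, and granzyme M prefers to cut after methionine or leucine. Granzymes C to G are rodent enzymes whose genes arose by duplication beside Gzmb, and they are known to be induced in T cells by strong or prolonged stimulation.

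The genes of granzymes B to G are neighbours on mouse chromosome 14. In the RefSeq gene table (assembly GRCm38.p6) the granzyme genes lie in the order Gzme, Gzmd, Gzmg, Gzmn, Gzmf, Gzmc and Gzmb, with pseudogenes and small nucleolar RNA genes between some of them. The gene of the granule protease cathepsin G (Ctsg) lies next to Gzme. That of the basophil protease Mcpt8 lies beyond Ctsg and a microRNA gene. The table also gives old names to more than 1 member, with Ctla7 a synonym of both Gzmg and Gzmf, and Ctla5 of both Gzmc and Gzmd. The 120 bases before the start of each gene are shown for 6 members, because they make the likeness within the cluster visible. They come from RefSeq promoter entries of build GRCm38.p6, minus strand, written in the direction of transcription. Capitals mark the longest run found in all of Gzmc, Gzmd, Gzme, Gzmf and Gzmg.

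Gzmc, chr14:56234658-56234777: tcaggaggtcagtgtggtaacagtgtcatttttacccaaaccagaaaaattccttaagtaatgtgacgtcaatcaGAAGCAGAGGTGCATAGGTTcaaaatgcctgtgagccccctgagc
Gzmd, chr14:56132594-56132713: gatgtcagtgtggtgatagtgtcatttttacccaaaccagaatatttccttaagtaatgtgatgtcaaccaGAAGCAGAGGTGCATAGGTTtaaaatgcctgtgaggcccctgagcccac
Gzme, chr14:56120626-56120745: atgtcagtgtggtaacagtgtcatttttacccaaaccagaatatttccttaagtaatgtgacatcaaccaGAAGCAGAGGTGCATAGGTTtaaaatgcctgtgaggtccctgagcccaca
Gzmf, chr14:56211408-56211527: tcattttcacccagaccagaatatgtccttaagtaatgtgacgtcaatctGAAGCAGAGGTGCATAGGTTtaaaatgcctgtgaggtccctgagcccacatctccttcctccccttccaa
Gzmg, chr14:56159580-56159699: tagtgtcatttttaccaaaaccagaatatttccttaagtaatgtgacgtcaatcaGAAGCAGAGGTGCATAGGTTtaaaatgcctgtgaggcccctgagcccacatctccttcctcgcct
Gzmb, chr14:56262335-56262454: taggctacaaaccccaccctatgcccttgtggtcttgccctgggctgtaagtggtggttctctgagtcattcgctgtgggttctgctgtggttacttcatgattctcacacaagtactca

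The run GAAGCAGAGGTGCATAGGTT, of 20 bases, starts 45 bases before the start of Gzmc, 49 before Gzmd, 50 before Gzme, 70 before Gzmf and 65 before Gzmg. Searched on both strands in the 250 bases before the start of 32851 annotated promoters, it was present in 5, those of the same genes. In pairwise alignments of these 250 bases, the 10 pairs among Gzmc to Gzmg had from 76.4% to 95.2% identical bases, with a median of 82.8%. Gzmd and Gzme were the pair with 95.2%. The longest run shared by Gzmb with any of the 5 was only 9 bases, against 24 to 51 for pairs within Gzmc to Gzmg. The palindrome TGACGTCA, the cAMP response element bound by CREB and ATF proteins, was present before Gzmc, Gzmf and Gzmg and in 1.55% of all promoters. TGTGGTT, a core sequence of Runx binding, was present on one or the other strand before all 6 genes and in 4.4% of all promoters. These matches are letters in a window and not measured sites. Promoters do not show how alike the transcripts are. The array's probe sequences and the transcript sequences were not used here, so whether the probes of Gzmc, Gzmd, Gzme and Gzmg bind each other's message, or that of the unnamed Gzmf, was not tested, and these 4 values are not taken as independent.

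The deposited values are probe intensities in arbitrary units. A value was present for 80.8% of all probes at 0.3 M and for 71.3% at 0.5 M, with a median of 25 on each array over the probes measured there. Over the 16154 probes measured on both, the medians were 32 and 26. The log2 values of each array were therefore centred on that median, which adds 0.30 to every difference (0.5 M minus 0.3 M) relative to the values as deposited. Genes at or above the median gene on at least 1 array were kept, 7446 of 13735, and their median difference was 0.08. Differences below are log2 values after that centring unless said otherwise.

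All of the 7 granzymes measured on both arrays were higher at 0.5 M than at 0.3 M, in the deposited intensities as well as after centring. They passed the filter on dim genes, but Gzmd, Gzme and Gzmm passed it through the 0.5 M array alone, so these 3 could only be kept if they were brighter there. The differences ran from 0.46 to 1.59. At least 2-fold higher were 4 genes, Gzmg, Gzmd, Gzmm and Gzme, and 0 were 2-fold lower. Among all kept genes 5.24% were at least 2-fold higher and 2.35% at least 2-fold lower, and 55.9% lay above 0. Gzmg alone passed 2-fold as deposited and with a pseudocount of 20, where 1.63% and 1.79% of kept genes were at least 2-fold higher, and the same 4 genes passed it with quantile normalization and with loess, where 3.25% and 3.1% were. The median of the 7 granzymes was 1.05, but this count and median include the 3 genes kept through the 0.5 M array alone. Direction held as deposited, with quantile normalization and with a pseudocount of 20 for each of the 7, whereas with loess, which removes the trend of the difference with brightness, Gzmb was at -0.03 and the other 6 stayed above 0. RNA was pooled from many vesicles, so fewer vesicles with a message and less of it per vesicle cannot be told apart.

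**Figure D1:**
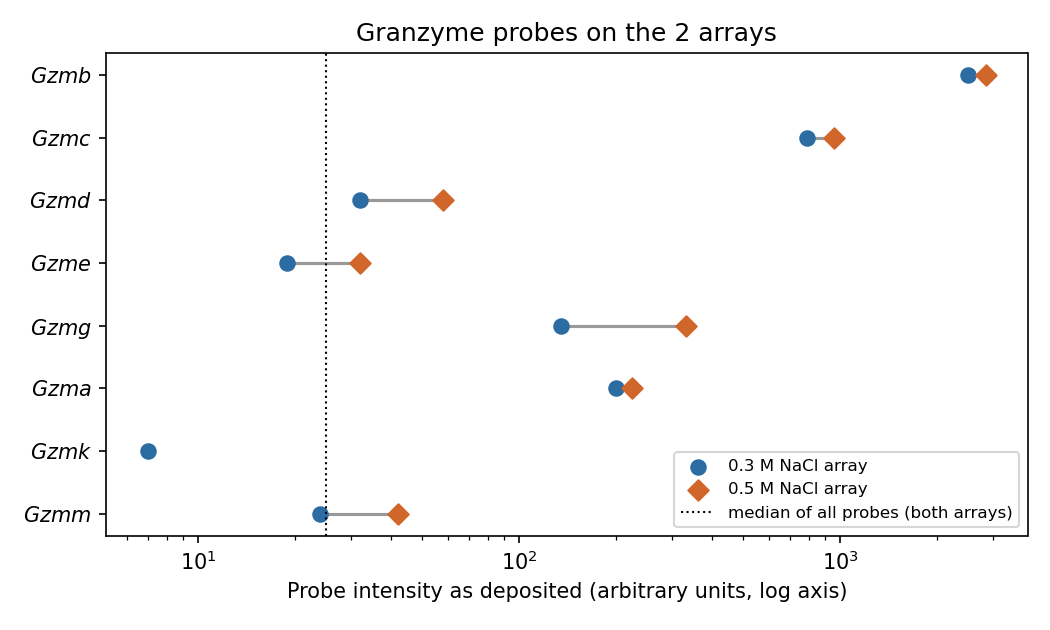
Deposited intensity (arbitrary units, log axis) of the 8 granzyme probes at 0.3 M NaCl (circles) and 0.5 M NaCl (diamonds), 1 array each, with the median of all probes on either array (25) as a dotted line. The 7 probes with both values were brighter at 0.5 M, with the smallest ratio for Gzma (200 and 224) and the largest for Gzmg (135 and 330). Gzmk had a value of 7 at 0.3 M only.

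Granzyme B, the main caspase-activating granzyme, had a bright probe with similar values on both arrays. The Gzmb probe read 2493 at 0.3 M and 2838 at 0.5 M, above 98.5% and 98.4% of the probes measured on each array. Its difference was 0.49 after centring, 1.4-fold, and 0.19 as deposited. Bright genes in general lay above 0 in this comparison, so kept genes were split into 10 bins by mean level. In the brightest bin, which holds Gzmb, the median difference was 0.46 over 745 genes and 50.7% of them had a smaller difference than Gzmb. Gzmb was thus near the middle of genes as bright as itself. The kept genes nearest to it over both log2 values were Ndufa2, a subunit of respiratory complex I (2667 and 2928), Arpc2, of the actin-nucleating Arp2/3 complex (2295 and 2877), and Naca, which binds nascent chains at the ribosome (2319 and 2694). They lay 0.11, 0.12 and 0.13 log2 units away, a likeness over 2 arrays only.

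Granzyme C, encoded next to granzyme B, gave a like picture. The Gzmc probe read 787 at 0.3 M and 958 at 0.5 M, a difference of 0.58. It fell in the same bin as Gzmb, where 56.4% of genes had a smaller difference. With quantile normalization the difference was 0.29, and with loess 0.22.

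Granzyme G had the largest difference of the 7, under each of the 5 scalings tried. The Gzmg probe read 135 at 0.3 M and 330 at 0.5 M, a ratio of 2.44 as deposited and 3.01 after centring. Its difference of 1.59 exceeded that of 99.4% of all kept genes and of 98.9% of the 745 genes in its own level bin, the eighth from the dimmest, whose median was 0.15 and of which 6.58% were at least 2-fold higher. It was the only granzyme past 2-fold under all 5 scalings tried, with a lowest value of 1.29 as deposited. The difference of Gzmg minus that of Gzmb, which a constant shift between arrays cannot change, was 1.10, and it was 1.36 with quantile normalization, 1.47 with loess and 0.99 with a pseudocount. The same quantity was 1.01 against its cluster neighbour Gzmc but only 0.43 against Gzmd, and for Gzmd it ran from 0.30 with loess to 0.59 with a pseudocount.

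Granzymes D and E had dim probes with close differences. The Gzmd probe read 32 at 0.3 M and 58 at 0.5 M, a difference of 1.16. The Gzme probe read 19 and 32, a difference of 1.05. The 2 differences were 0.11 apart, and that of Gzmm, encoded outside the cluster, lay between them at 1.11. Deposited intensities are whole numbers, and that rounding alone allows 1.12 to 1.19 for Gzmd and 0.99 to 1.11 for Gzme, so Gzme is not separable from 2-fold even by its own rounding. In the level bin of Gzmd, the third from the dimmest, 3.78% of 741 genes were at least 2-fold higher and Gzmd exceeded 97.4%. Gzmd and Gzme were kept through the 0.5 M array alone, so their places among kept genes are a description. Gzme lay in the dimmest bin, where 7.52% of genes were at least 2-fold higher and 6.98% at least 2-fold lower. The filter itself widens that spread, because a gene with a mean under the cut could be kept only through 1 array. These shares are therefore no reference for Gzme. As deposited the differences were 0.86 and 0.75, and with a pseudocount 0.76 and 0.59, each under 2-fold.

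**Figure D2:**
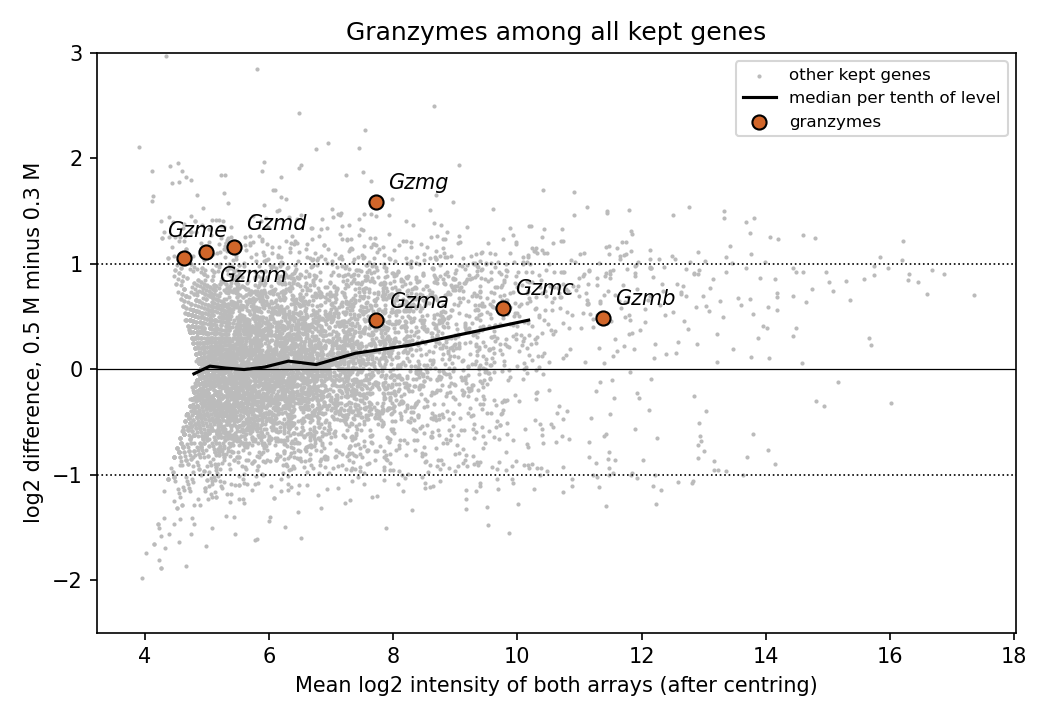
Difference (log2, 0.5 M minus 0.3 M) against mean log2 intensity for the kept genes (grey, 1 gene lies outside the plotted range), with the granzymes in orange, the median of each of 10 level bins as a line and 2-fold as dotted lines. Gzmb and Gzmc sit close to the rising line of bin medians (0.46 in their bin), while Gzmg, at 1.59, sits far above it and Gzmd, Gzme and Gzmm lie just past 2-fold among dim genes.

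The granzymes encoded outside the cluster differed from each other in the size of the difference. Granzyme A, a tryptase-like enzyme abundant in CTL and natural killer cells, had a Gzma probe at 200 and 224, a difference of 0.46. That was the smallest in the family with centring, as deposited and with a pseudocount, whereas with quantile normalization and with loess Gzmb and Gzmc were lower. In its level bin, shared with Gzmg, 71.5% of genes had a smaller difference. Granzyme M was dim. The Gzmm probe read 24 at 0.3 M, under the median of the array, and 42 at 0.5 M, a difference of 1.11, for which rounding alone allows 1.06 to 1.15. In its bin, the second from the dimmest, 1.74% of 748 genes were at least 2-fold higher. Gzmm was kept through the 0.5 M array alone, so its place among them is a description. The annotation pairs this probe with a noncoding transcript variant of Gzmm, so it may not report the coding message.

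Granzyme K had no difference to give. The Gzmk probe read 7 at 0.3 M, above only 10.2% of the probes measured there, and had no value at 0.5 M. Of the 714 probes that read 7 at 0.3 M, 399 (55.9%) were empty at 0.5 M, so an empty cell was common at this brightness. What made a cell empty is not stated, and no bound was put in its place. Gzmn lies within the cluster between Gzmg and Gzmf and is not among the 9 genes. It was kept through the 0.3 M array alone and went the other way, with 46 at 0.3 M and 25 at 0.5 M, a difference of -0.58 that stayed below 0 under every scaling tried (from -0.88 as deposited to -0.38 with a pseudocount).

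The spread between probes of the same gene gives the only scale of error in these data. Over 358 kept genes with several probes, the pooled SD of the difference within a gene was 0.55, about that of all kept genes (0.56). Variation from one vesicle preparation to another is not in it, and every granzyme had a single probe. Gzma, Gzmb and Gzmc lay 0.7, 0.7 and 0.9 of this SD from the median of all kept genes, within the spread. Gzme, Gzmm and Gzmd lay 1.8, 1.9 and 2.0 of it away, and Gzmg 2.7. Without replicates, no more can be said of these distances than that.

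**Figure D3:**
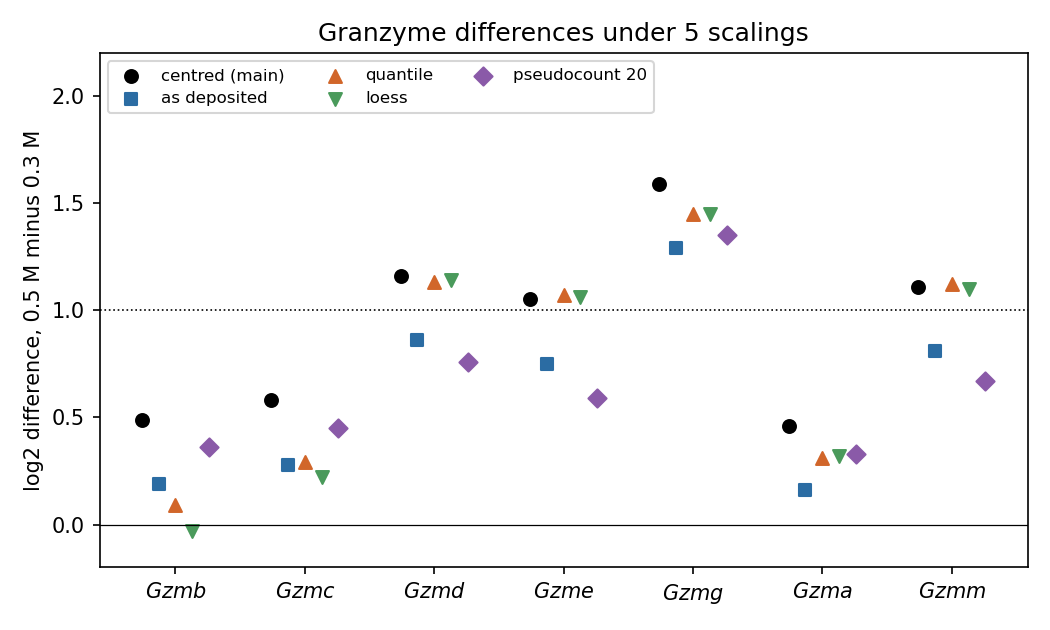
Difference (log2, 0.5 M minus 0.3 M) of the 7 granzymes measured on both arrays under 5 scalings, with 2-fold as a dotted line; there are no error bars because each fraction has 1 array. Gzmg lies past 2-fold throughout, Gzmd, Gzme and Gzmm fall under it as deposited and with a pseudocount of 20, and Gzmb lies between -0.03 (loess) and 0.49 (centred).

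The genes that work with granzymes lay on both sides of 0. Partner genes were grouped in 8 lists, 90 genes in all without the granzymes, for the granule matrix, granule fusion, granzyme activation, inhibitors, substrates, other effectors, related proteases and cathepsins. Of these genes 59 were measured on both arrays and 37 were kept, with 4 at least 2-fold higher, 0 at least 2-fold lower and a median of 0.17, beside 5.24% higher and a median of 0.08 for all kept genes. Of the 37, 21 lay above 0 and 16 below. The filter admitted 7 of them through the 0.5 M array alone, among them Napsa and Trex1 of the 4 past 2-fold, and 3 through the 0.3 M array alone, so these could be kept only by being brighter on that array and the counts are a description.

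Perforin and serglycin are the granule partners of granzymes. The probe of Prf1, perforin, read 33 at 0.3 M and 26 at 0.5 M, a difference of -0.04. The probe of Srgn, serglycin, read 33 and 55, a difference of 1.04 that was 0.74 as deposited and 0.68 with a pseudocount. The granule chaperone calreticulin (Calr) read 5 at 0.3 M and had no value at 0.5 M. Prf1 passed the filter through the 0.3 M array alone. With loess Prf1 was at -0.05 and Gzmb at -0.03, but after centring they were at -0.04 and 0.49. As deposited they were at -0.34 and 0.19.

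Genes of granule membranes and fusion lay on both sides of 0. Of 19 listed, 10 were kept, 5 above 0 and 5 below, with 0 past 2-fold in either direction and a median of 0.08. Vamp8, a SNARE of granule fusion, read 351 and 501 (0.81), and Nkg7, a granule membrane protein of killer cells, read 405 and 548 (0.74). Slc29a3, a lysosomal nucleoside transporter, read 65 and 29 (-0.86). Lamp1, the membrane protein used as a degranulation marker, read 418 and 381 (0.17).

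The enzymes that mature granzymes were mostly too dim to compare. Ctsc, cathepsin C, which removes the activating dipeptide from granzymes, read 6 at 0.3 M and had no value at 0.5 M. Of the 8 genes of activation and trafficking, 4 were kept and 1 was at least 2-fold higher. That was Napsa, an aspartic protease, at 17 and 33 (1.26), which was kept through the 0.5 M array alone, as was M6pr. The mannose 6-phosphate receptors, which sort granzymes to granules, parted, with M6pr at 30 and 39 (0.68) and Igf2r at 68 and 39 (-0.50).

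Serpin inhibitors, which protect killer cells from their own granzymes, had a median of -0.05 over 4 kept genes, with 0 past 2-fold. Serpinb9, the inhibitor of granzyme B, read 30 and 25 (0.04) and was not kept. Serpinb6b, an inhibitor of granzyme A, read 176 and 135 (-0.08). Serpinb6a was at -0.57. Serpinb9b, which inhibits granzyme M, read 26 and 33 (0.64), the 1 kept inhibitor above 0, and it was kept through the 0.5 M array alone.

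Substrates and effectors beyond the granzymes were spread as well. Of 21 substrate and death pathway genes 11 were kept, 6 above 0 and 5 below, with a median of 0.01. Trex1, a DNA exonuclease of the granzyme A pathway, read 18 and 40 (1.45) and was the 1 past 2-fold, but it too was kept through the 0.5 M array alone. Nme1, a nuclease of the same pathway, read 2824 and 3585 (0.64), and Lmnb1, a lamin cut in dying cells, 146 and 72 (-0.72). Among 8 death ligands and other effectors 3 were kept, Ctsw, a cathepsin of killer cells, at 43 and 82 (1.23), the cytokine Lta at 0.47 and Ifng, interferon gamma, at 468 and 238 (-0.68). Fasl, the death receptor ligand, was dim at 28 and 22 and was not kept.

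Related serine proteases, some encoded beside the granzyme cluster and others, such as Elane and Prtn3, elsewhere, were mostly dim. Of 14 chymase locus and neutrophil proteases 10 had a probe, 6 were measured on both arrays and 2 were kept, Gzmn and Mcpt8, the latter at 59 and 60 (0.32). Ctsg, beside Gzme in the genome, read 22 and 10 (-0.84) and was not kept. Of 13 cathepsins 3 were kept, with Ctsw ahead of Ctsd (959 and 1197, 0.62) and Ctsb (45 and 45, 0.30).

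**Figure D4:**
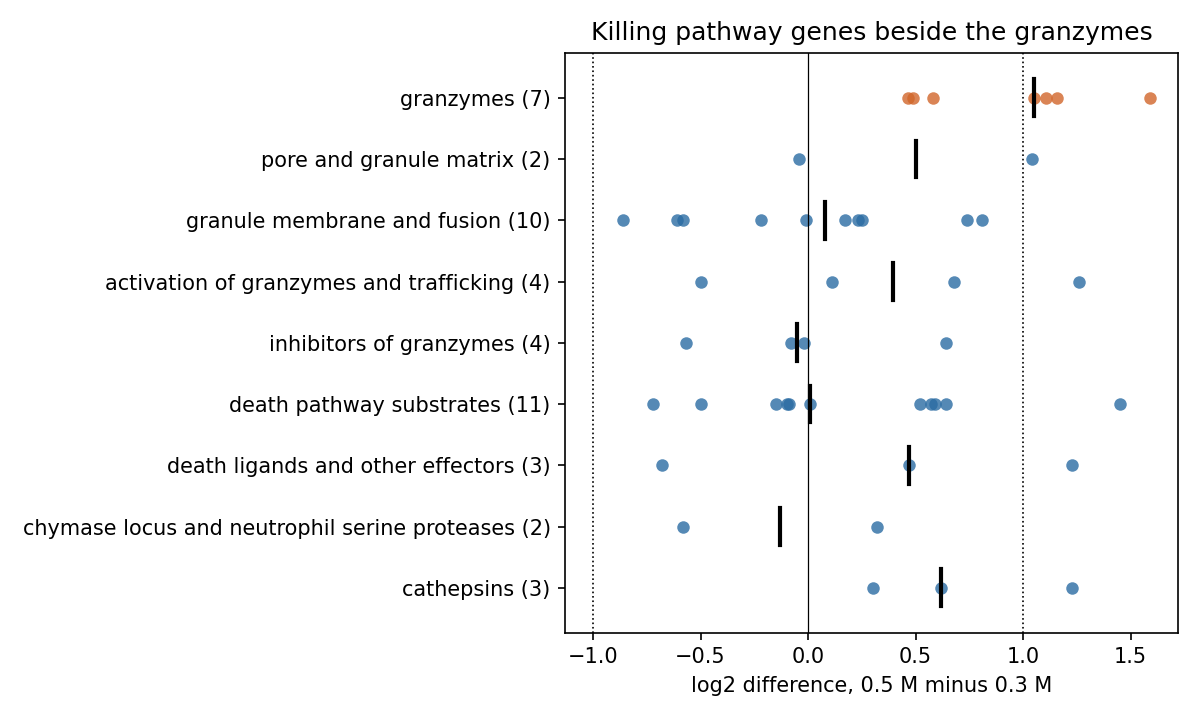
Difference (log2, 0.5 M minus 0.3 M) of each kept gene in the granzyme family and in 8 lists of partner genes, 1 point per gene, with the number of genes in brackets, the list's median as a black bar and 2-fold as dotted lines. The 7 granzymes lie between 0.46 and 1.59 after centring, with Gzmd, Gzme and Gzmm kept through the 0.5 M array alone. Medians of the 8 lists run from -0.13 (chymase locus and neutrophil proteases, with only Gzmn and Mcpt8 kept) to 0.62 (cathepsins). Granule fusion genes, inhibitors and substrates are at 0.08, -0.05 and 0.01. The granule matrix, with only Prf1 and Srgn kept, is at 0.5 and other effectors are at 0.47.

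Markers of CTL were present on both arrays. Of 9 CTL markers 7 had a probe, all with a value on both arrays, and 6 were kept. After centring 4 lay above 0 and 0 past 2-fold, with a median of 0.57, beside 0.46 for Gzma, 0.49 for Gzmb and 0.58 for Gzmc. With loess the markers lay further apart, with Cd3g at 0.84, Cd8b1 at 0.64, Cd3d at 0.15, Thy1 at 0.13, Prf1 at -0.05 and Cd8a at -0.81. Cd3g read 105 and 162 (0.93), Cd8b1 333 and 496 (0.87) and Cd3d 849 and 990 (0.52). Thy1 read 2015 and 2516 (0.62) on 1 probe, while another read 6 at 0.3 M only. Cd8a went the other way, at 3677 and 2463 (-0.28) on 1 probe with no value on another, and Prf1 was at -0.04. The deposited intensities of the CTL marker probes measured on both arrays summed to 7024 at 0.3 M and 6667 at 0.5 M, of which Cd8a made up 3677 and 2463. Natural killer cells also make Gzma, Gzmb and Gzmm. Of 8 of their markers 4 were kept, each above 0 with centring, and the sums were 361 and 482. Klra8 led them at 151 and 244 (0.99), followed by Fcer1g at 83 and 105 (0.64) and Tyrobp at 33 and 37 (0.46). The defining Ncr1 read 5 and 9 and was not kept, and Klrb1c had no value on either array. The part of such markers in the granzyme differences was not tested. Mast cell markers, of which 1 of 10 was kept, summed to 160 and 128. The kept marker was Gata2, at 78 and 74 (0.22), and Hdc, not kept, read 30 and 13. Kit and Cma1 were empty on both arrays, and Cpa3 read 7 on the 0.3 M array alone. Neutrophil markers, 3 of 10 kept, summed to 732 and 363, of which Lcn2 made up 587 and 226 (-1.08). The other kept markers, Ly6g at 43 and 53 (0.60) and S100a8 at 41 and 40 (0.26), lay above 0 after centring. The median of the kept neutrophil markers was 0.26. Elane read 9 and 7 and was not kept. Helper and regulatory T cell markers, 2 of 4 kept, summed to 204 and 151. Il17a made up 126 and 90 of these sums (-0.19). Cd4 read 40 and 25 (-0.38) and was kept through the 0.3 M array alone.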

How the data were processed

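Cy5 arrays of amplified RNA were made from 1 sample of each fraction, per the labels' protocols. The authors deposited whole-number probe intensities on a linear scale. The scanner, the background correction, the normalization and the treatment of empty cells are not stated there. Empty cells were left without a value. Probes were named through the platform annotation, with symbols updated in a RefSeq table (20556 by Entrez identifier, 9 by accession, 125 kept as annotated and 2783 probes unnamed). Intensities were log2-transformed, and each array was centred on its median over probes measured on both. Probes of 1 gene were averaged. Genes at or above the median gene on either array were kept, and 2-fold was the size rule. Loess used a span of 0.3. The scalings were tested on simulated data. All 9 granzymes were named whatever their values, along with 9 partner genes fixed by name, from each list the 3 kept genes furthest from 0, and the 3 nearest to the brightest granzyme. Other partner and marker genes were named after their values were seen. Members and lists were chosen with earlier results of these data known. A planned alignment of the granzyme proteins was not run because protein sequences were not used here. Python 3.11.15 with pandas 2.3.3, statsmodels 0.14.6 and Biopython 1.88 was used. Precision is limited by the number of arrays.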

Additional observations from a re-analysis of the deposited data

How the results depend on the processing

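A value counted as moved when it changed by more than the SD between probes of a gene (0.55), and a count or share when it changed by more than 1.5 times. No granzyme's difference moved by that much under the values as deposited, quantile normalization, loess or a pseudocount of 20. The deposited values shift every difference by 0.30, under the limit, so for them this outcome was fixed in advance. Gzmb changed sign with loess, from 0.49 to -0.03, which is also under the limit. The median of the granzymes ran from 0.53 with the stricter filter (75th percentile), which kept only Gzma, Gzmb, Gzmc and Gzmg, to 1.07. The 4 granzymes past 2-fold were 1, Gzmg, as deposited, with a pseudocount and with the stricter filter, and 0 with a 4-fold rule. A filter on the mean of both arrays, added after seeing the data, kept 6 granzymes without Gzme, 3 of them past 2-fold, beside 4.9% of genes. The 4 partner genes past 2-fold higher were 1 as deposited and with the stricter filter, 0 with a pseudocount or a 4-fold rule and 11 with a 1.5-fold rule, and the 0 lower were 2 as deposited and 4 with a 1.5-fold rule. Kept genes past 2-fold higher, 5.24%, were 1.63% as deposited, 3.25% with quantile normalization, 3.1% with loess, 1.79% with a pseudocount, 18.9% with a 1.5-fold rule and 0.134% with a 4-fold rule. Those lower, 2.35%, were 7.78%, 3.87%, 3.93%, 1.28%, 11% and 0% in the same order. The cause of these shifts was not tested beyond the settings themselves. No paired analysis was possible because each fraction has 1 array. Dim probes limit Gzmd, Gzme, Gzmm and Gzmk most.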
